A study of Homo sapiens with 4 samples.

Results

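The galectin genes and LGALS3BP were followed in HuH7, a human liver cancer (hepatocellular carcinoma) cell line, after knockout of KDM6B. Members were taken as every probe set of the array whose only gene symbol in the platform annotation was LGALS1, LGALS2, LGALS3, LGALS4, LGALS8, LGALS9, LGALS12, LGALS13, LGALS14 or LGALS3BP. These 10 genes, of 19775 named on the array, were read by 16 of its 54613 probe sets. Expression was measured on Affymetrix Human Genome U133 Plus 2.0 arrays as deposited RMA values on the log2 scale, so a difference of 1 is a doubling. There were 2 arrays from KDM6B knockout cells and 2 from KDM6B wild-type cells. Per the labels, the knockout was made by transfecting a guide vector and a Cas9 vector, selecting with G418 and deriving subclones by limiting dilution. KDM6B encodes a demethylase of histone H3 lysine 27. Not given in the labels are whether the 2 knockout samples came from different subclones, whether wild-type cells went through transfection and selection, or whether samples of a group were separate cultures. The spread between arrays may therefore be technical, and effects of losing KDM6B cannot be told apart from effects of subcloning.

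Galectins are small lectins that bind galactose-bearing sugars, above all lactosamine units on the branches of N-glycans and O-glycans. They are made in the cytosol and leave the cell without a signal peptide, and outside it they cross-link glycoproteins of the surface and matrix. Some have a single sugar-binding domain and can pair into dimers (LGALS1, LGALS2, LGALS13, LGALS14), some carry a pair of different domains in 1 chain (LGALS4, LGALS8, LGALS9, LGALS12), and LGALS3 has a sugar-binding domain with a long tail through which it forms oligomers. LGALS3BP is not a galectin. It encodes a secreted, heavily glycosylated protein that galectins bind. In healthy liver LGALS1 is mainly a gene of non-parenchymal cells, and galectin-1 has often been studied in liver cancer.

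The family was chosen by the measured log2 difference of LGALS1 between knockout and wild type, the largest rise of this same comparison. The knockout and wild-type values of the members are therefore given as a description, with the standard error of the fit and with no p-value.

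LGALS1, the member that differed most, had no upstream window among the RefSeq sequences used, so none is shown for it. The upstream sequences of 3 other members are shown. They are LGALS14 and LGALS3BP, which were higher in knockout, and LGALS13, the near relative of LGALS14 in the same gene cluster of chromosome 19. Each is the stretch of 250 bases before the annotated start, 5′ to 3′, from RefSeq (GRCh38.p14). LGALS14 lies at chr19:39704231-39704480 (plus strand), LGALS13 at chr19:39602274-39602523 (plus strand) and LGALS3BP at chr17:78979924-78980173 (minus strand). Capitals mark a match, on either strand, to TTTAAA in LGALS14 and LGALS13 and to GAAA, any 2 bases and GAAA in LGALS3BP. The first resembles the TATA boxes of many promoters, and the second is the core of elements bound by interferon regulatory factors.
LGALS14: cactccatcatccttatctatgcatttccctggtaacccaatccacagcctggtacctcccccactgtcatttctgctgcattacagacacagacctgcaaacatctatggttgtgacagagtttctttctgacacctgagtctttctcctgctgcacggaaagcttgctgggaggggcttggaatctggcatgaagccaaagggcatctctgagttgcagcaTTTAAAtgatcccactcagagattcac
LGALS13: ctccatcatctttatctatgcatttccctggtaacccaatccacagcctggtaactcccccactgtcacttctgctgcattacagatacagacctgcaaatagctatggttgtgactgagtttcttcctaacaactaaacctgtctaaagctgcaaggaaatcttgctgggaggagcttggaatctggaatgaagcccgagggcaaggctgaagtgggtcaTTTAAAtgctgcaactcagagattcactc
LGALS3BP: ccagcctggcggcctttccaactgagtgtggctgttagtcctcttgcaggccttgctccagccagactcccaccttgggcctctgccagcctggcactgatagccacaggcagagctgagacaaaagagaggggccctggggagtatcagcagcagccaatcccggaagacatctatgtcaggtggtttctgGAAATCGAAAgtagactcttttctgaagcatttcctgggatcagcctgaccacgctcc

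Of 35116 RefSeq windows of the same length, 11.3% held TTTAAA and 3.02% held the spaced GAAA pair. LGALS14 and LGALS13 were 84.9% identical over their windows in a global alignment. LGALS14 and LGALS16, a gene of the cluster whose expression was not analysed here, were 85.7% identical, and the LGALS16 window held no TTTAAA. LGALS14 and CLC, another gene of the cluster, were 63.8% identical, and LGALS14 and the unrelated LGALS3BP 50.3%. The windows of LGALS14 and LGALS13 each held 1 CpG dinucleotide and that of LGALS3BP 4, against a median of 11 over all windows. The LGALS3 window held 32. A match is a description of letters and shows no bound factor.

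LGALS1, on chromosome 22, was the member that differed most. Its only probe set read 10.27 and 10.05 in knockout and 6.25 and 6.34 in wild type. Both knockout arrays lay far above both wild-type arrays. The means were 10.16 ± 0.15 in knockout and 6.30 ± 0.06 in wild type (SD, n = 2 each). They differ by 3.86 (SE 0.12) on the log2 scale, or 14.5-fold, the highest of all 19775 genes. With any 1 array left out the difference was 3.75 to 3.97. The wild-type readings were above the medians of their arrays (4.96 and 5.04). The arrays measure cells in bulk, so more cells with LGALS1 mRNA and more of it per cell cannot be told apart.

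LGALS14, a galectin gene known from placenta, was the member with the next largest difference. It read 11.42 and 11.42 in knockout against 9.19 and 8.96 in wild type. The SD between the knockout arrays was 0.0047, and the groups were far apart. The log2 difference was 2.35 (SE 0.11), or 5.09-fold, rank 29 among the rises of all genes, and it was 2.23 to 2.46 with any 1 array left out. The wild-type readings too were above the medians of their arrays. LGALS14 has near relatives in its gene cluster, and whether its only probe set also reads their transcripts was not determined.

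LGALS3BP, whose product is induced by interferons and measured in serum as a liver fibrosis marker, read 7.20 and 7.03 in knockout and 6.18 and 6.33 in wild type. The groups did not overlap. The log2 difference was 0.86 (SE 0.14), or 1.82-fold. LGALS3, whose protein is a main partner of LGALS3BP, read 12.76 and 12.79 in knockout and 12.45 and 12.39 in wild type by its brighter probe set (208949_s_at). Here too the groups did not overlap, but the log2 difference was only 0.36 (SE 0.08), or 1.28-fold. The other LGALS3 probe set, 1557197_a_at, read 3.22 and 3.38 in knockout against 3.22 and 3.13 in wild type. Those readings lay below the 25th percentile of each array (3.53 to 3.67) and were not shown to be above background.

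**Figure D1:**
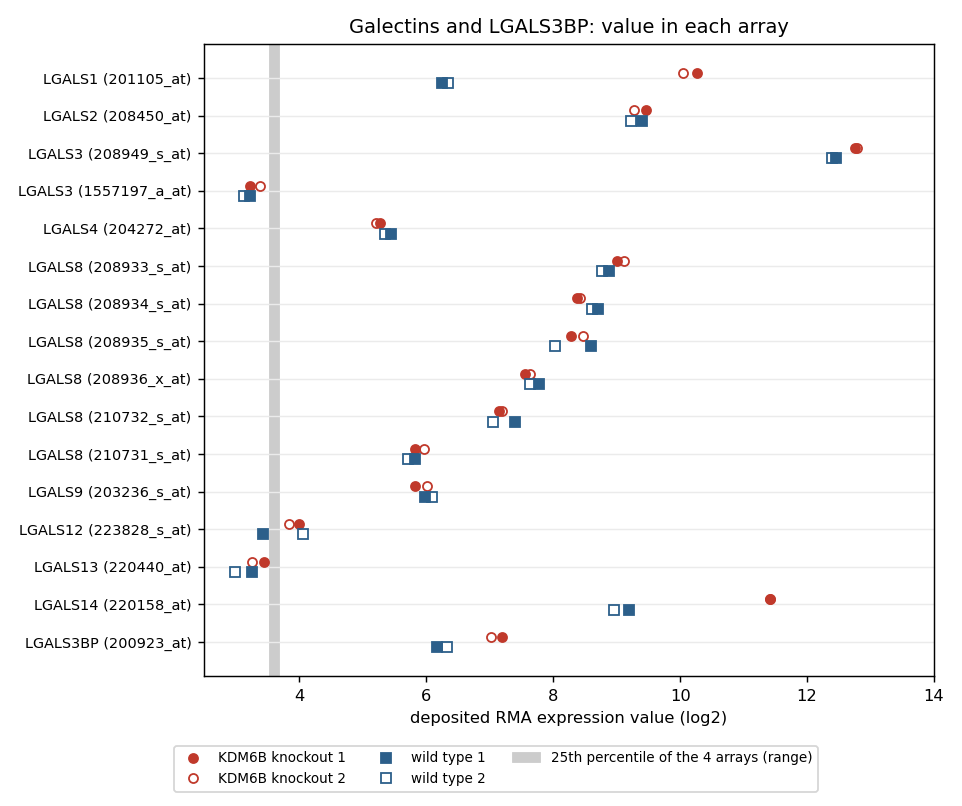
Deposited RMA value (log2, horizontal axis) of each of the 16 member probe sets in each array, with circles for the 2 knockout arrays and squares for the 2 wild-type arrays. The grey band spans the 25th percentiles of the 4 arrays. LGALS1 and LGALS14 show wide gaps between groups, LGALS3BP a smaller one, and LGALS13 and 1 LGALS3 probe set lie below the band.

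The other single-domain galectins had smaller differences. LGALS2, a galectin gene of the gut and of some macrophages that lies near LGALS1 on chromosome 22, read 9.47 and 9.27 in knockout and 9.40 and 9.22 in wild type. The groups overlapped, with a log2 difference of 0.06 (SE 0.12). LGALS13, which encodes placental protein 13, read 3.44 and 3.26 in knockout and 3.25 and 2.98 in wild type. Although these groups did not overlap, every reading was below the 25th percentile of its array, so no level above background was shown in either group.

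Galectins with a pair of sugar-binding domains differed little. LGALS4, a gene of intestinal epithelium, read 5.27 and 5.21 in knockout and 5.44 and 5.36 in wild type, a log2 difference of -0.16 (SE 0.14). LGALS9, whose protein binds the immune receptor TIM-3, read 5.82 and 6.02 in knockout and 5.98 and 6.09 in wild type, and the groups overlapped. Probe sets ending in _s_at, as here, can match several transcripts, and LGALS9 has close copies. LGALS12, known from adipocytes and their lipid droplets, read 3.997 and 3.84 in knockout and 3.43 and 4.06 in wild type. Its wild-type arrays were farther apart (SD 0.44) than the groups (0.18), and 1 wild-type reading (3.43) was below the 25th percentile of its array (3.53).

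LGALS8, whose protein recruits autophagy receptors to damaged vesicles, was read by 6 probe sets that did not share a direction. Of these, 3 were higher and 3 lower in knockout (4 and 2 after repeated quantile normalization), with log2 differences of -0.26 to 0.24 and a median of 0.01. Probe set 208933_s_at read 8.999 and 9.12 in knockout and 8.88 and 8.76 in wild type, a difference of 0.24 (SE 0.11). Probe set 208934_s_at went the other way, at 8.38 and 8.42 in knockout and 8.71 and 8.61 in wild type (difference -0.26, SE 0.10). In both the groups did not overlap, whereas they overlapped in the other 4. Which transcripts each probe set reads was not determined here.

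**Figure D2:**
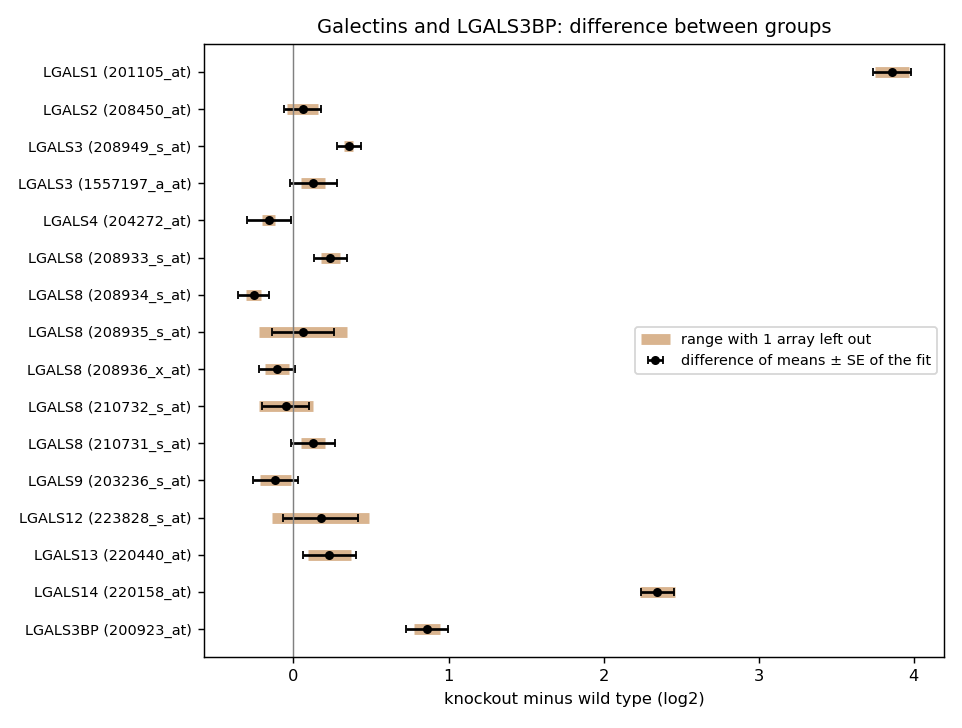
Log2 difference, knockout minus wild type, of each member probe set (points, with the SE of the limma fit as bars), and the range of that difference when 1 array was left out in turn (tan bars). LGALS1 at 3.86, LGALS14 at 2.35 and LGALS3BP at 0.86 stand to the right, and the other 13 probe sets lie between -0.26 and 0.36.

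In the limma fit over all probe sets, 3 of the 16 member probe sets passed the threshold of adjusted p under 0.05, those of LGALS1, LGALS14 and LGALS3BP, and all 3 were higher in knockout. Of all probe sets 2.91% passed in either direction, 1.27% upward and 1.63% downward. Groups did not overlap in 8 of the 16 (6 with knockout above, 2 with knockout below), against 40.5% of all probe sets (20.5% with knockout above, 19.9% with knockout below). The median log2 difference was 0.13 over the members and 0.01 over all probe sets. The comparison was the one that drew attention to LGALS1, so nothing is read from these counts. LGALS3BP was no longer past the threshold without the intensity trend in the variance or with any 1 array left out, and LGALS1 and LGALS14 were not past it without knockout 1 or without knockout 2, where 0 of all probe sets passed (4670 and 4947 had an unadjusted limma p under 0.05).

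Galectin-fold genes outside the members were checked as well. Of 8 such genes, CLC and LGALSL had a probe set with a single symbol. CLC, which encodes the Charcot-Leyden crystal protein of eosinophils, lies next to LGALS14 and read 4.44 and 4.60 in knockout and 3.87 and 3.49 in wild type. The log2 difference of 0.84 (SE 0.19) did not pass (limma adjusted p = 0.096), and 1 wild-type reading was below the 25th percentile. LGALSL, which encodes a galectin-related protein, differed by 0.24 (SE 0.10) on its brighter probe set and did not pass (limma adjusted p = 0.371). A probe set shared by LGALS7 and LGALS7B read 4.73 and 4.70 in knockout and 4.43 and 4.37 in wild type, and was not assigned to either.

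Differences of the genes beside LGALS1 and LGALS14 were smaller. Among the 8 measured genes on each side of LGALS1, 8 were higher and 8 lower in knockout, with a median log2 difference of -0.01 and a range of -0.59 to 0.47. Only GCAT, an enzyme of threonine breakdown, passed, and it fell by 0.59 (SE 0.10, limma adjusted p = 0.048), close to the threshold of 0.05. TRIOBP, the highest of these neighbours at 0.47 (SE 0.16), did not pass but had an unadjusted limma p of 0.026. NOL12, the next gene after LGALS1, differed by -0.04. Around LGALS14 the 16 genes had a median of 0.09 and a range of -0.21 to 0.84, the highest being CLC, and 0 passed the limma test, while CLC and PSMC4 (-0.21) had an unadjusted p under 0.05. The neighbours of LGALS14 were looked at after its value was seen.

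The genes whose values ran most like those of LGALS1 were found by the Euclidean distance between log2 values over the 4 arrays, after each gene's mean was subtracted. UPK1B, a uroplakin gene, was nearest, at a distance of 0.17, with 9.17 and 9.08 in knockout and 5.38 and 5.31 in wild type. CARD16, a regulator of caspase-1, followed at 0.55, then AGR3 at 0.69, the collagen gene COL14A1 at 0.78, the long noncoding RNA gene UCA1 at 0.83 and the adhesion gene CEACAM6 at 0.85. With 2 arrays a group, any gene with a rise of like size comes near.

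Around the galectins, 119 genes were listed for binding partners, for the making and capping of their sugar ligands, for the response to damaged endolysosomes and for other lectins. Of the 115 that were measured, each by its brightest probe set, 8 rose, 7 fell and 100 did not pass, where 4.82% of all genes passed, 2.19% upward and 2.62% downward. The median log2 difference was 0.08 over these genes and 0.01 over all genes. The lists were chosen with earlier results of these data known and were not matched to all genes in brightness. Nothing is therefore read from these counts. Without knockout 1 or without knockout 2 the count was 0 (25 and 27 had an unadjusted limma p under 0.05), and without either wild-type array it was 1, ALCAM. Without the intensity trend 9 of the 15 calls remained, those of NRP1, EGFR, INSR, B4GALT5, FUT2 and SQSTM1 being lost.

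By their brightest probe sets the 31 measured binding partners had 4 rises and 1 fall, 26 did not pass, and the median log2 difference was 0.15. CD44 did not pass (-0.50), although 11 of its 13 probe sets were lower and 1 of the 13 passed. Its probe sets differed by -1.81 to 0.18. ALCAM, an adhesion molecule that galectin-8 binds, fell most. It read 7.95 and 7.86 in knockout and 10.62 and 10.50 in wild type, and thus fell by 2.65 (SE 0.10, limma adjusted p = 9.5e-04), or 6.29-fold, and all 3 of its probe sets were lower. CD7, a receptor of galectin-1 on T cells, rose by 1.01 (SE 0.12, limma adjusted p = 0.016), with both probe sets called. The CD7 probe set read here ends in _x_at, and which transcripts it matches was not determined. NRP1 (neuropilin-1) rose by 0.98, although 1 of its 4 probe sets did not share the direction. EGFR, the receptor of epidermal growth factor, read 9.28 and 9.33 in knockout and 8.45 and 8.31 in wild type and rose by 0.92 (SE 0.10), with 6 of 9 probe sets in that direction. The fourth was INSR, the insulin receptor, at 0.75 (SE 0.10), with all 5 of its probe sets higher.

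Genes listed for the branched, lactosamine-bearing glycans mostly did not pass, and which glycans each builds in these cells was not determined. Among the 23 measured genes there were 1 rise and 1 fall, 21 did not pass, and the median was 0.01. B4GALT5, a galactosyltransferase, rose by 0.97 (SE 0.11, limma adjusted p = 0.015), at 9.97 and 10.06 in knockout and 9.14 and 8.95 in wild type. SLC35A2, which carries UDP-galactose into the Golgi, fell by 1.11 (SE 0.10, limma adjusted p = 0.0081), at 9.22 and 9.33 in knockout and 10.44 and 10.33 in wild type. Its 16 nearest measured neighbours on the X chromosome, of those at or above the median brightness, had a median of -1.16. The part of that chromosomal shift in the fall of SLC35A2 was not tested.

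Of 20 capping and core 2 genes, which add sialic acid or fucose or build O-glycan branches, 1 rose and 2 fell. The remaining 17 did not pass, and the median was 0.01. FUT1, a fucosyltransferase that makes the H antigen, fell by 1.63 (SE 0.21, limma adjusted p = 0.021), at 5.27 and 4.71 in knockout and 6.61 and 6.61 in wild type. FUT2, which makes the same structure in secretory epithelia, rose by 0.83 (SE 0.12, limma adjusted p = 0.029). The pair thus moved in opposite directions. ST3GAL1, a sialyltransferase of O-glycans, fell by 1.46 (SE 0.15, limma adjusted p = 0.012), and all 3 of its probe sets were lower.

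In the response to damaged endolysosomes, in which LGALS3 and LGALS8 take part, 1 of 16 genes fell and 15 did not pass (median 0.10). SQSTM1, the autophagy receptor p62, fell by 0.51 (SE 0.09, limma adjusted p = 0.047), with 3 of its 5 probe sets in that direction, and was not called after repeated quantile normalization or median centring.

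Other animal lectins changed both ways. There were 2 rises and 2 falls among 25, 21 did not pass, and the median was 0.05. COLEC12, a scavenger receptor with a C-type lectin domain, read 6.39 and 6.46 in knockout and 4.33 and 4.81 in wild type and rose by 1.85 (SE 0.20, limma adjusted p = 0.012). MBL2, the mannose-binding lectin secreted by liver, rose by 1.37 (SE 0.15, limma adjusted p = 0.013). The subunits of the asialoglycoprotein receptor, the galactose-binding lectin of hepatocytes, both fell. ASGR1 read 6.95 and 7.47 in knockout and 9.72 and 9.50 in wild type and fell by 2.40 (SE 0.19), and ASGR2 fell by 1.11 (SE 0.10, limma adjusted p = 0.0099). Both lie on chromosome 17 among genes that were lower in knockout. Their 16 nearest measured neighbours, of those at or above the median brightness, had medians of -0.51 and -0.52. The part of that shift in the falls of ASGR1 and ASGR2 was not tested.

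**Figure D3:**
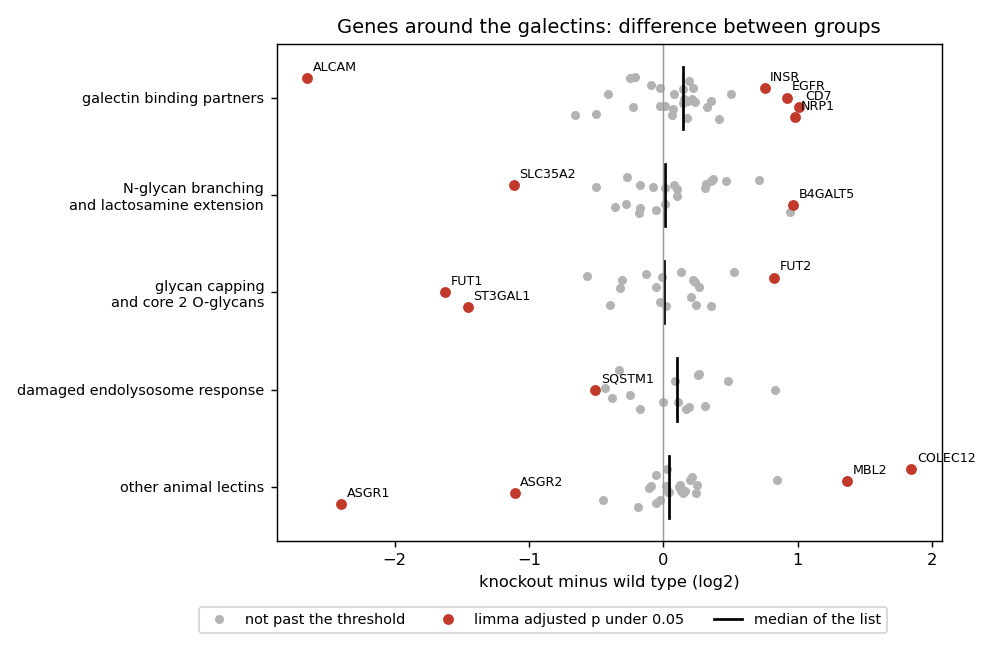
Log2 difference, knockout minus wild type, of each measured gene of the 5 lists around the galectins (points, spread vertically for legibility), with genes past limma's adjusted p of 0.05 in red and the median of each list as a black line. Medians lie between 0.01 and 0.15, and the 15 red genes lie on both sides of 0.

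The series as a whole was checked briefly. The 5 probe sets of KDM6B, the targeted gene, were lower in knockout by 0.21 to 0.40 on the log2 scale, and 0 passed the limma test (2 had an unadjusted p under 0.05). Where the guide cuts relative to these probe sets was not determined, so they do not check the labels. KDM6B too lies on chromosome 17, where the neighbours of ASGR1 and ASGR2 described above had medians of -0.51 and -0.52. Whether KDM6B shares that shift was not tested. Markers of hepatocytes were bright in both groups, with a mean of 12.60 and 12.58 over 7 measured markers in knockout and 12.77 and 12.71 in wild type. Of the 7, SERPINA1 fell by 0.49 (SE 0.08, limma adjusted p = 0.040) and 6 did not pass, and over all 19 of their probe sets 3 passed, of SERPINA1 and FGB, all lower. Of 26 measured markers of fibroblasts, endothelium, leukocytes and stellate or smooth muscle cells, which can also carry LGALS1 mRNA, 0 passed on their brightest probe set (limma; 3 had an unadjusted p under 0.05, TEK higher, PECAM1 and LYZ lower). Over all 78 of their probe sets 2 passed, both lower in knockout, 1 of LYZ (-2.02, limma adjusted p = 0.0029) and 1 of PECAM1 (-0.76, limma adjusted p = 0.046). The largest positive difference among them was 1.43, that of a COL1A1 probe set, which did not pass (limma adjusted p = 0.064). It read 7.44 and 7.88 in knockout and 6.61 and 5.85 in wild type. Of the 5 COL1A1 probe sets 4 were higher in knockout, and 0 passed. The others differed by 0.71, 0.53, 0.13 (the brightest) and -0.05. The probe set at 0.53 read below the 25th percentile of every array. Fibroblast markers averaged 5.04 and 5.01 in knockout and 4.85 and 4.98 in wild type, and stellate and smooth muscle markers 5.06 and 4.95 in knockout and 4.90 and 5.06 in wild type. Endothelial markers averaged 4.73 and 4.63 in knockout and 4.66 and 4.76 in wild type, and leukocyte markers 5.68 and 5.63 in knockout and 5.75 and 6.03 in wild type. Of these markers 6 lay below the 25th percentile in some array. The part of such cells in the LGALS1 difference was not tested.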

How the data were processed

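The deposited log2 values were made by the authors with RMA in the affy package, per the submitters' processing notes, with no version stated there. The set of arrays normalized together is not given in the labels. RMA brings the distributions of arrays close to each other, so a shift common to most genes would be largely removed. The deposited values still had medians of 5.05 and 5.01 in knockout and 4.96 and 5.04 in wild type. Per the labels' protocols, RNA was labelled from the 3′ end of transcripts. Groups and replicate numbers came from the sample titles. Probe sets were named by the platform annotation: 41091 had 1 symbol, 1801 several and 11721 none, and 19738 of the 19775 symbols matched RefSeq's table (GRCh38.p14). No detection calls were used, and precision is limited by the small number of arrays.

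All 54613 probe sets were fitted with limma 3.58.1 in R 4.3.3 (lmFit, eBayes with an intensity trend), with two-sided p-values adjusted over all of them (Benjamini-Hochberg) and a call at adjusted p under 0.05. Residual degrees of freedom were 2, and the prior added 3.89. An exact permutation test of 2 against 2 cannot go below 0.333, so none was run. For listed genes the brightest probe set (by mean over arrays) was read. Up to 3 called genes per list and direction were named, largest first, INSR and CD44 being added after their values were seen. Neighbours were 8 on each side. Tables, alignments and figures used Python 3.11.15, pandas 2.3.3, NumPy 2.4.6, Biopython 1.88 and matplotlib 3.10.9. The fit was tested on simulated data. Alternatives changed the trend, scaling, filters, probe sets, pairing and arrays. The members and lists were chosen with earlier results of these data known.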

Additional observations from a re-analysis of the deposited data

How the results depend on the processing

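Of the alternatives with all 4 arrays, only repeated quantile normalization and median centring can alter a difference of group means. Under these LGALS1 differed by 3.83 and 3.88, and by 3.75 to 3.97 over the arrays left out. The other members' 30 values shifted by at most 0.064 (log2), and 1 changed sign (an LGALS8 probe set). With 1 array left out 6 of 60 values changed sign, all of LGALS2, LGALS8 or LGALS12. The filter on dim probe sets brought LGALS3 past the threshold. The number of calls was less stable. The 1587 probe sets and 15 listed genes called became 641 and 9 without the intensity trend, where the cause was not tested, and 831 and 8 without probe sets ending in _s_at or _x_at, where fewer were tested (39114, and 94 listed genes). With 1 array left out there were 0 to 82 probe sets and 0 to 1 listed genes, from fewer samples, the lone array of a group being assumed to vary like the other group. Specifically, 82 probe sets passed without wild type 1, 55 without wild type 2 and 0 without knockout 1 or knockout 2. Same-numbered arrays deviated in opposite ways (correlation -0.50 over probe sets, which are not independent). With 2 arrays a group this does not settle whether arrays were handled in pairs. The replicate block left 77 probe sets and 1 listed gene, with LGALS3BP no longer past the threshold. The crossed pairing, chosen after seeing the data, gave 4349 and 33. Other alternatives gave 1399 to 2109 probe sets and 15 to 20 listed genes. Without detection calls, low readings cannot be told from background.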
